A study of Mus musculus with 5 samples.

Results

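The genes described here encode the proteins of the cytosolic ribosome in the mouse forelimb bud. The rule that chose them reads only names and a count minimum. Every gene symbol that begins with Rpl or Rps and a number, with an optional a, x, l or l1 after it, was taken, together with Rplp0, Rplp1, Rplp2 and Rpsa. A symbol also needed at least 10 counts in at least 2 of the 5 libraries. Of the 23284 gene symbols measured, 83 matched by name and 79 of these passed the count filter, which 16323 symbols passed in all. The 79 genes were 42 of the large subunit, 31 of the small subunit, the 3 P proteins of the ribosomal stalk, and 3 paralogues whose names end in l or l1 (Rpl22l1, Rpl7l1 and Rps27l). The 4 symbols that failed the filter were Rpl10l with at most 2 counts in a library, Rpl26 with at most 2, Rpl39l with at most 12 and Rpl3l with at most 9.

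The study measured total RNA, depleted of ribosomal RNA, in 5 libraries of mouse forelimb. There was 1 library of forelimb bud at E10.5 (embryonic day, counted from noon of the plug day), with the strain label CD1 and no mutation named. The E11.5 libraries came from the distal part of the forelimb, where the digits form, on a mixed C57BL/6 and CD1 background. There were 2 from wild-type embryos and 2 from Hoxa13-/-;Hoxd13-/- embryos, called mutant below. Both alleles are germline loss-of-function alleles. Hoxa13 carries a neomycin cassette in its coding region, and Hoxd13 carries a lacZ reporter in its first exon. The labels give 2 independent pools of micro-dissected tissue for each genotype and N = 4 for the tissue samples, without saying whether this is per pool. The p-values below rest on the spread between the 2 libraries of each genotype, moderated over all genes. The E10.5 library thus differed from the others in stage, dissected part and strain label at once, and these cannot be told apart.

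Reads counted in genes ranged from 45115494 to 84172202 per library. Levels below are CPM (counts scaled to the size of the library, with TMM factors), unless a share is given. Hoxd13 stood at 38.2 and 45.8 CPM in the mutant libraries and at 236.5 and 242.3 CPM in the wild-type ones. The Hoxa13 counts, between 38.0 and 48.7 CPM in the 4 E11.5 libraries, do not check the label, because the cassette interrupts the gene without removing it. All 8 markers of limb mesenchyme were detected in every library, with Prrx1 between 476 and 707 CPM. Of the sum of gene counts and unassigned reads, reads with more than 1 alignment made up 14.8% at E10.5, 10.3% and 9.10% in mutants 1 and 2, and 10.6% and 14.2% in wild types 1 and 2.

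The ribosome is built from a large and a small subunit, each an RNA core carrying proteins that are for the most part needed in equal numbers. The genes for these proteins are scattered over the genome and are known for being expressed together in growing tissue such as a limb bud. Their mRNAs share a start: transcription begins at a C within a run of C and T bases, the 5′ terminal oligopyrimidine (TOP) motif, through which LARP1 and mTOR signalling set their translation. Mutations in several of these genes are known to cause Diamond-Blackfan anaemia, in which skeletal malformations including those of the thumb can occur.

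Start sites of 59 of the 79 genes were in the RefSeq table of promoters on the GRCm38.p6 build, with 70 windows in all. Of these 59 genes, 27 had a run of 7 or more C or T bases in a window and 32 had none. The 7 sequences below show genes with such a run, and 2 genes without one. They are Rpl38 and Rps6, 2 members with known regulatory roles, Rpl35, which had the longest run of the sequences shown, Rplp2 and Rpl22l1, which stood highest at E10.5 relative to E11.5, and Rpl37a and Rpl10, which lay at the ends of the mutant comparison. Each runs 5′ to 3′ on the gene's own strand, from 15 bases before the annotated first base, which is base 16. Capitals mark the longest run of C and T near the start, the first of equal runs. In Rpl37a an unmarked run of the same length ends at base 16. In Rpl10 the marked run reaches past the 10 bases after the start, within which the longest run was 2 bases.
Rpl38 (chr11:114668565-114668594, plus strand): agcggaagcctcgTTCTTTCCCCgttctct
Rps6 (chr4:86857353-86857382, minus strand): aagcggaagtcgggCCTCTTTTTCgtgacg
Rpl35 (chr2:39005117-39005146, minus strand): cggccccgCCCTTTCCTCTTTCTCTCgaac
Rplp2 (chr7:141447636-141447665, plus strand): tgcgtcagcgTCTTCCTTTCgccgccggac
Rpl22l1 (chr3:28805493-28805522, plus strand): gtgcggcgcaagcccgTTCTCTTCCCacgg
Rpl37a (chr1:72711245-72711274, plus strand): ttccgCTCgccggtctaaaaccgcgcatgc
Rpl10 (chrX:74270801-74270830, plus strand): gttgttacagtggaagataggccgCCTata

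A run of 7 or more C or T bases on the sense strand within 10 bases of the annotated start was present in 27 of the 70 windows (38.6%), against 12.8% of the 32851 windows of all genes. C was the first base in 31.4% of the windows, against 16.3% of all. TCT with its C as the first base was found in 11.4%, against 1.58%. In the whole window, from 250 bases before to 50 bases after the start, CCGGAAG, a core to which ETS factors are known to bind, was present on either strand in 35.7% against 8.86%. AAGATGGC, a core known for YY1, was present on either strand in 11.4% against 2.75%. TATAAA, the TATA box, was found between 45 and 6 bases before the start in 1.43% against 2.31%. These matches describe the annotated windows. Where transcription started in the limb bud was not measured.

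The 79 genes together held 6.95% of all gene counts at E10.5, 6.63% and 6.75% in mutants 1 and 2, and 6.28% and 6.80% in wild types 1 and 2. The share of the 2 mutant libraries lay between those of the 2 wild-type libraries, so the genotypes overlapped. The 42 large-subunit genes held 3.68% of the counts at E10.5 and between 3.34% and 3.62% at E11.5. The 31 small-subunit genes held 2.85% at E10.5 and between 2.60% and 2.84% at E11.5. The ratio of the large share to the small one was 1.29 at E10.5, 1.28 and 1.25 in the mutants, and 1.28 and 1.29 in the wild types. The subunits kept nearly the same proportion in every library while the summed level moved.

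Divided by the length of the coding sequence, the levels of most of these genes lay close together. The median was 1638 CPM per kb over the 79 genes, with the 10th percentile at 969.9 and the 90th at 2286, and 71 genes lay between 900 and 3500 CPM per kb. The median was 1640 CPM per kb for the large subunit and 1734 for the small subunit. Of the stalk genes, Rplp1 had a mean of 2571 CPM per kb over the 5 libraries, Rplp0 2109 and Rplp2 1078. Rplp0 encodes the scaffold of the stalk, on which dimers of the Rplp1 and Rplp2 proteins sit and recruit elongation factors. Rps24 had 3434 CPM per kb, the highest value after Rpl41.

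**Figure D1:**
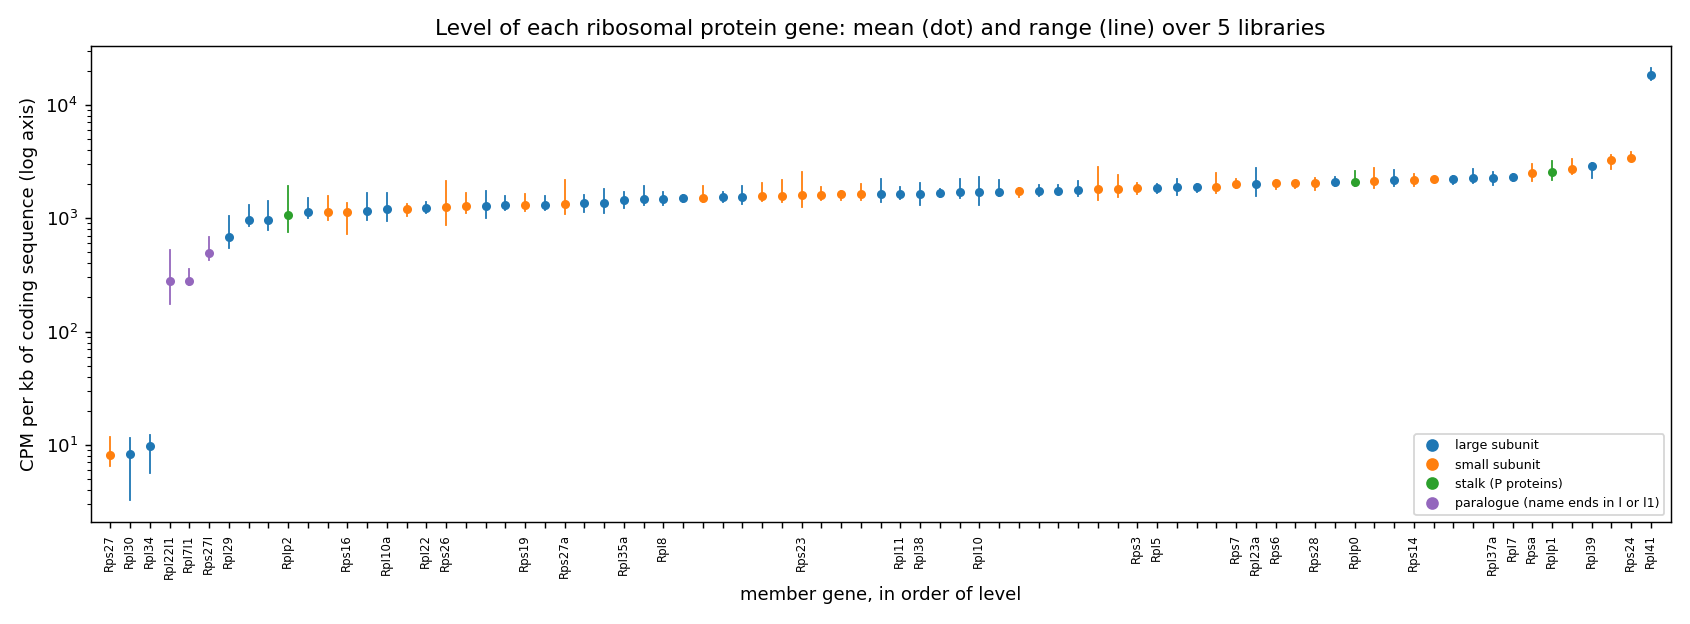
Level of each of the 79 genes in CPM per kb of coding sequence (log axis), ordered by level, with names for genes the text describes; the dot is the mean over 5 libraries and the line runs from the lowest to the highest library. Most genes lie between 900 and 3500 CPM per kb, with Rps27, Rpl30 and Rpl34 near 10, the 3 paralogues at 279.8 to 492 and Rpl41 at 18320.

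The 8 genes outside this band were named after their values were seen, as the plot of levels by gene shows them. The paralogues Rpl22l1, Rpl7l1 and Rps27l had 279.8, 282 and 492 CPM per kb. Rpl29 had 687 CPM per kb. Rpl41, whose coding sequence of 75 bases is the shortest of all, had 18320 CPM per kb, a value that rests on dividing by that length. Rps27, Rpl30 and Rpl34 had 8.10, 8.35 and 9.75 CPM per kb, far below the rest.

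The 3 low genes encode ordinary parts of the ribosome, and their counts were small in every library. Rps27 had 216 counts at E10.5 and 84 to 109 in the E11.5 libraries, Rpl30 had 82 and 149 to 224, and Rpl34 had 143 and 176 to 250. The share of 50-base stretches of coding sequence that recur exactly in another gene or pseudogene of the GENCODE M21 annotation was 100% for Rps27, 83.1% for Rpl30 and 72.2% for Rpl34. That share was high in the group as a whole, with a median of 91.6%, and 44 genes stood above 90%. Rps3 with 8.09% and Rpl8 with 8.73% were among the few genes under 10%, and their levels of 1845 and 1476 CPM per kb lay near the median. Across the 79 genes the shared part and the level per kb had a Spearman rho of 0.116, all points coming from the same 5 libraries. RefSeq lists 310 pseudogene symbols that carry the name of 1 of 62 of the 79 genes. How the authors' alignment and counting treated reads from such copies was not stated in the labels or notes. The HTSeq output lists 9.10% to 14.8% of all lines as alignment not unique, apart from the gene counts. Which genes those reads came from is not given, and the levels of genes with such copies are uncertain. Of the 3 low genes, Rps27 lay above the median share and Rpl30 and Rpl34 below it. The part of shared sequence in the low counts of Rps27, Rpl30 and Rpl34 was not tested.

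The first comparison asked whether loss of HOX13 activity changed the ribosomal protein genes in the distal limb at E11.5. None of the 79 genes rose and none fell at an adjusted p under 0.05 by edgeR's quasi-likelihood test with Benjamini-Hochberg adjustment over 16166 genes. In the same test 7.16% of all genes were called, 3.82% risen and 3.34% fallen. At an unadjusted p under 0.05, 13 of the 79 genes passed (19.4% of all genes did), of which 10 were higher in the mutant (9.79% of all) and 3 lower (9.58% of all). DESeq2 called 1 of the 79, Rpl37a (7.18% of all genes it tested). The fitted log2 fold changes, mutant over wild type, ran from -0.30 to 0.31. Their median was 0.03, beside -0.000819 over all genes. Of the 79, 49 were above 0 and 30 below, whereas 49.8% of all genes were above 0. In bulk tissue, fewer cells of a type and less RNA per cell cannot be told apart.

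The intervals give the size of change that these libraries leave possible. All 79 of the 95% intervals lay within 2-fold in either direction, and 76 lay within 1.5-fold. The 3 wider ones belonged to Rps27, Rpl30 and Rpl34, the genes of lowest count, with outer bounds of 0.72, -0.66 and 0.72 on the log2 scale. The median size of the log2 fold change without its sign was 0.08, against 0.15 over all genes, and the median standard error was 0.10, against 0.13. The large-subunit genes had a median log2 fold change of 0.02, with 23 of 42 above 0. The small-subunit genes had a median of 0.04, with 23 of 31 above 0. The plot of fold changes by gene shows both subunits spread over the whole order.

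**Figure D2:**
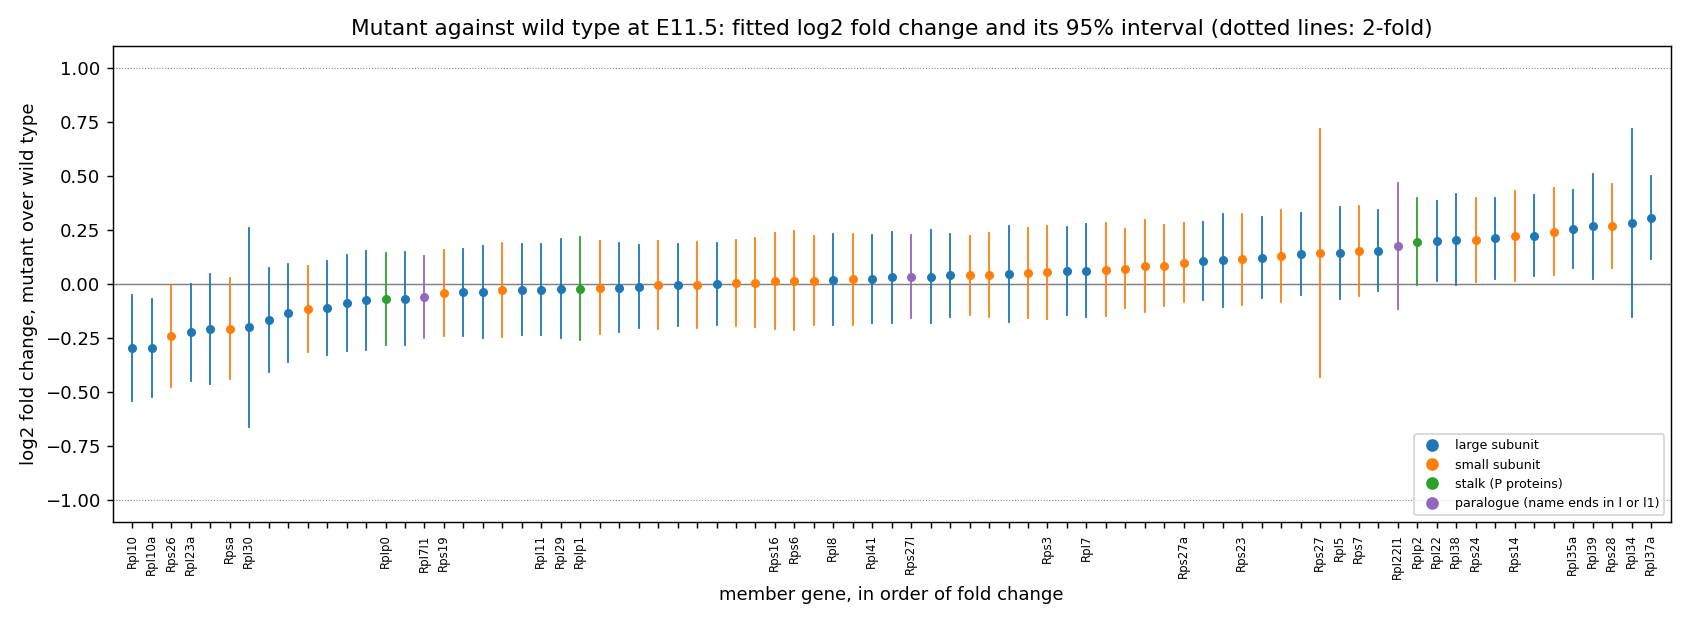
Fitted log2 fold change, mutant over wild type at E11.5, for each of the 79 genes in order of its value, with names for genes the text describes; the line is the 95% interval and the dotted lines mark 2-fold. The values run from -0.30 for Rpl10 to 0.31 for Rpl37a, and every interval lies inside the dotted lines.

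Both mutant libraries stood above both wild-type libraries for 22 of the 79 genes, against 24% of all genes tested. Both stood below for 7, against 25.3% of all. The other 50 genes overlapped between genotypes. The 22 were 13 large-subunit genes (Rpl5, Rpl9, Rpl17, Rpl22, Rpl23, Rpl34, Rpl35, Rpl35a, Rpl36a, Rpl37, Rpl37a, Rpl38 and Rpl39), 8 small-subunit genes (Rps7, Rps14, Rps15a, Rps21, Rps24, Rps27a, Rps28 and Rps29) and Rplp2. The 7 were Rpl10, Rpl10a, Rpl23a, Rpl30, Rps2, Rps26 and Rpsa.

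Rpl37a, a zinc-finger protein of the large subunit, had 652 and 706 CPM in mutants 1 and 2 and 558 and 546 CPM in wild types 1 and 2. Both mutant values lay above both wild-type values. Its log2 fold change was 0.31 (SE 0.09), and its adjusted p of 0.0585 by edgeR's quasi-likelihood test was the lowest of the 79. Rps28, a small-subunit protein near the path of the mRNA, had 457 and 467 CPM in the mutants and 407 and 364 CPM in the wild types, a log2 fold change of 0.27 (SE 0.09; edgeR adjusted p = 0.0991). Rpl35a, a Diamond-Blackfan anaemia gene, had 489 and 494 CPM against 421 and 407 CPM, a log2 fold change of 0.25 (SE 0.08; edgeR adjusted p = 0.0978). For both genes the genotypes did not overlap, and neither passed the test. Rpl39, a small protein of the exit tunnel, had 472 and 473 CPM in the mutants and 446 and 344 CPM in the wild types (edgeR adjusted p = 0.208). There the gap between the wild types exceeded the gap between the genotype means. Rpl34, with 4.02 and 4.27 CPM against 3.76 and 3.10 CPM, is a gene of low count (edgeR adjusted p = 0.511).

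At the lower end, Rpl10, which joins the large subunit late in its assembly, had 951 and 837 CPM in mutants 1 and 2 and 994 and 1210 CPM in wild types 1 and 2. Its log2 fold change was -0.30 (SE 0.11; edgeR adjusted p = 0.155). The mutant values were the lower ones, but wild type 2 stood further from wild type 1 than wild type 1 did from mutant 1. Rpl10a, the protein of the L1 stalk, had 646 and 622 CPM against 706 and 856 CPM (log2 fold change -0.30, SE 0.10; edgeR adjusted p = 0.125). Rps26, at the mRNA exit of the small subunit, had 351 and 302 CPM against 353 and 421 CPM (edgeR adjusted p = 0.248). Rpl23a, at the mouth of the exit tunnel, had 828 and 733 CPM against 848 and 982 CPM (edgeR adjusted p = 0.261). In all 4 genes the highest of the E11.5 libraries was wild type 2.

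Several members known for a particular role gave small differences as well. Rpl38, whose loss in the mouse is known to alter axial patterning and the translation of Hox mRNAs, had 337 and 354 CPM in the mutants and 328 and 276 CPM in the wild types, a log2 fold change of 0.20 with a 95% interval from -0.01 to 0.41 (edgeR adjusted p = 0.279). Rps19, the gene most often mutated in Diamond-Blackfan anaemia, had 525 and 515 CPM against 508 and 568 CPM, with an interval from -0.24 to 0.16. Rps14, known from the anaemia of 5q deletion, had 1027 and 1114 CPM against 876 and 967 CPM, with an interval from 0.01 to 0.43 and an edgeR adjusted p of 0.221. The mutant libraries were above the wild types for Rpl38 and Rps14 and between them for Rps19.

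Rpl5 and Rpl11, which with 5S RNA can bind the p53 regulator Mdm2, had log2 fold changes of 0.14 (interval -0.07 to 0.36) and -0.03 (interval -0.24 to 0.18). Rps6, the substrate of S6 kinase, had 1505 and 1482 CPM in the mutants and 1349 and 1620 CPM in the wild types. Its mutant values lay between those of the wild types. Rpsa, also known as a laminin receptor, had 1903 and 1948 CPM against 2023 and 2444 CPM (log2 fold change -0.21, interval -0.44 to 0.03). Rplp0, a common reference gene, had 1849 and 1823 CPM against 1815 and 2061 CPM (log2 fold change -0.07, interval -0.28 to 0.14).

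The calls depended on the wild-type library used. A fit with 1 wild-type library holds no spread within the wild type, so its calls rest on the mutant pair alone. Without wild type 1 the edgeR test called 18 of the 79 genes, 9 risen and 9 fallen, against 12.2% of all genes tested, and the median of the 79 was -0.06. Among the 18 were Rpl10, Rpl10a, Rpl23a, Rps26 and Rpsa, which fell, and Rpl37a, Rps28, Rpl35a, Rpl39, Rpl38, Rplp2 and Rpl22l1, which rose. Without wild type 2 it called 4, all risen (Rpl37a, Rpl5, Rps14 and Rps9), against 9.26% of all genes tested, and the median was 0.10. Rpl37a was the gene called in both cases. The log2 fold change of Rpl10 was -0.44 without wild type 1 and -0.14 without wild type 2. That of Rpl39 was 0.45 and 0.10. In the same order Rpl10a had -0.43 and -0.14, Rps26 -0.37 and -0.10, Rpl23a -0.33 and -0.10, Rpsa -0.35 and -0.06, Rps28 0.34 and 0.20, Rpl38 0.33 and 0.09, and Rplp2 0.29 and 0.11. Rpl37a, at 0.31 and 0.30, and Rpl35a, at 0.27 and 0.24, moved least of the genes named here.

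The 2 wild-type libraries themselves differed over these genes. Wild type 2 was higher than wild type 1 for 63 of the 79, with a median difference of 0.17 on the log2 scale, against 0.00458 over all genes. The corresponding median between the 2 mutant libraries was 0.02. The plot by library shows the mutant medians between those of the wild types.

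**Figure D3:**
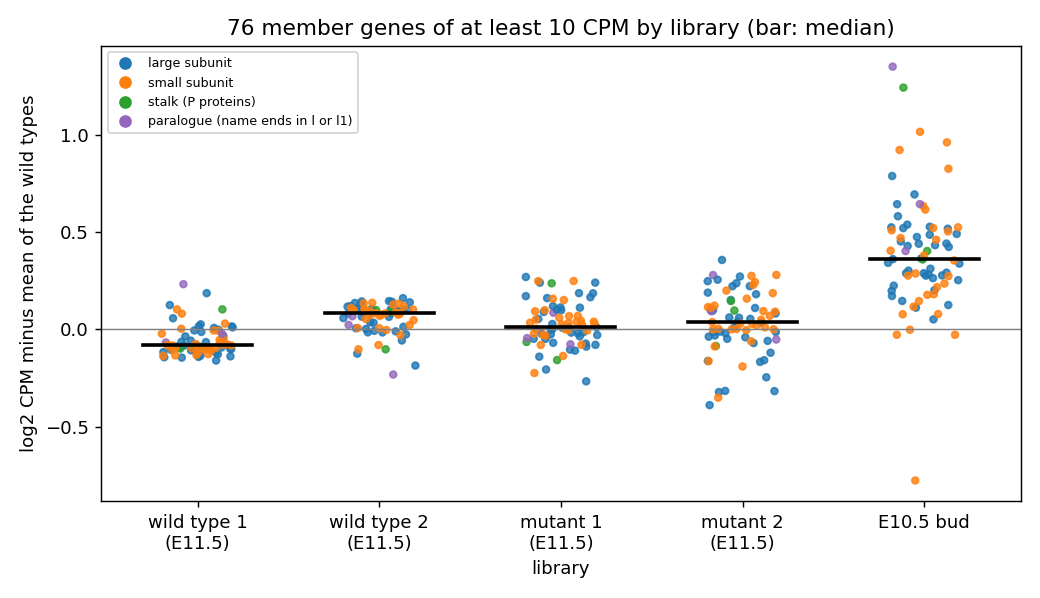
Log2 CPM minus the mean of the 2 wild-type libraries for the 76 genes of at least 10 CPM, by library (each dot a gene, the bar the median). The medians of the wild types mirror each other about 0 because their mean was subtracted. Those of the mutants lie between them, and that of the E10.5 bud lies near 0.36.

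The difference between the wild types was ordered by coding length. Over the 76 genes of at least 10 CPM, it correlated with the log of the coding length with a Pearson r of 0.581 and a Spearman rho of 0.596. The points share the same 2 libraries, and mean CPM correlated with the same difference at 0.518 and 0.390. Over the 13553 genes with a length the correlation was -0.204 and -0.252, and over the 5967 of them no longer than the longest ribosomal protein gene it was -0.050 and -0.111. Among the 25 shortest genes, with coding sequences of 75 to 405 bases, wild type 2 was the higher in 11. It was the higher in all 25 of the middle class and in all 26 of the longest class, 582 to 1257 bases.

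The mutant comparison carried the same order where it used wild type 2. Coding length and the log2 fold change had a Pearson r of -0.425 and a Spearman rho of -0.432 over the 76 genes. Against wild type 1 alone the values were -0.120 and -0.091, and against wild type 2 alone -0.518 and -0.513. Over all genes with a length they were -0.033 and -0.048 for the fitted fold change. Of the 13 genes with an unadjusted p under 0.05, 8 of the higher ones and 1 of the lower ones were in the shortest class. The shortest class had a median log2 fold change of 0.08 against wild type 1 and of 0.11 against wild type 2, and the longest class 0.11 and -0.08. The share of reads with more than 1 alignment also differed between wild types 1 and 2 (10.6% and 14.2%), as did that of reads in no feature (39.2% and 30.3%), and their part in this was not tested.

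**Figure D4:**
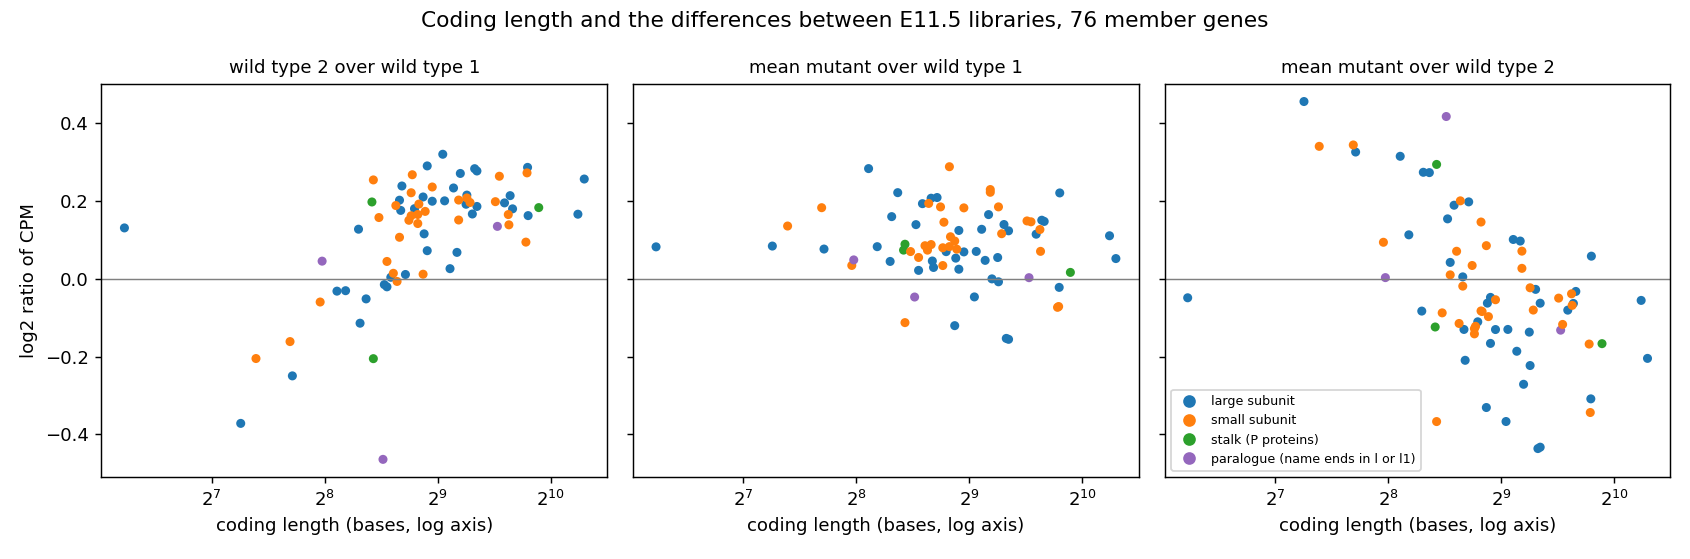
Log2 ratio of CPM between E11.5 libraries against coding length in bases (log axis) for the 76 genes, each dot a gene; from left to right, wild type 2 over wild type 1, the mean mutant over wild type 1, and the mean mutant over wild type 2. The points rise with length on the left (r = 0.581), are nearly level in the middle (r = -0.120) and fall on the right (r = -0.518).

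The second comparison set the E10.5 bud beside the E11.5 wild types. With 1 library at E10.5 there is no test, and it shares its wild-type libraries with the mutant comparison. The ribosomal protein genes stood higher in the E10.5 library. That library also stood apart in Rn45s, the ribosomal RNA precursor, which had 23760 CPM there and 6222 to 7713 CPM in the 4 E11.5 libraries, and its part in the result was not tested. The median difference over the 79 genes was 0.36 on the log2 CPM scale, with a prior count of 2, against 0.01 over all genes. For 71 of the 79 genes the E10.5 value was above both wild-type libraries (43.5% of all 16323 genes were), and for 4 it was below both (42.5% of all). The medians were 0.34 for the large subunit, 0.35 for the small subunit and 0.40 for the stalk. Scaled by total counts in place of TMM, the median of all genes moved to -0.24 and that of the 79 to 0.11. Scaling shifts all genes of a library nearly alike, so the unchanged distance of these medians, 0.35, is no check of the scaling. By total counts 57 of the 79 genes lay above the wild-type mean and 22 below, in place of 73 and 6 with TMM.

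Few of the differences were large. The E10.5 value was at least 2-fold above each wild-type library for 3 of the 79 genes (3.85% of all genes) and at least 2-fold below each for 1 (12.4% of all). At 1.5-fold the counts were 10 above (10.2% of all) and 3 below (18.6% of all). Rpl22l1 had 190.5 CPM at E10.5 and 87.8 and 63.6 CPM in wild types 1 and 2, 2.52-fold the wild-type mean. Rplp2 had 661 CPM against 299.9 and 260.1 CPM, 2.36-fold. Rps27a, which encodes a ribosomal protein fused to ubiquitin, had 1028 CPM against 506 and 511 CPM, 2.02-fold. In the mutant libraries the 3 genes had 79.3 and 90.6, 329 and 309, and 533 and 550.4 CPM, so the E10.5 value of each lay above all 4 E11.5 libraries.

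Rps23, which reaches the decoding centre, had 1095 CPM at E10.5 and 534 and 593 CPM in the wild types, 1.94-fold. Rps26 had 730.2 CPM against 353 and 421 CPM, 1.89-fold. Against wild type 1 alone both of them also passed 2-fold, with log2 differences of 1.04 and 1.05. By total counts none of the 79 stood 2-fold above each wild type and 1 stood 2-fold below. Of all 16323 genes, 2886 were then called in either direction. The plot of E10.5 against each wild type shows most of the other genes above 0 and under 2-fold.

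**Figure D5:**
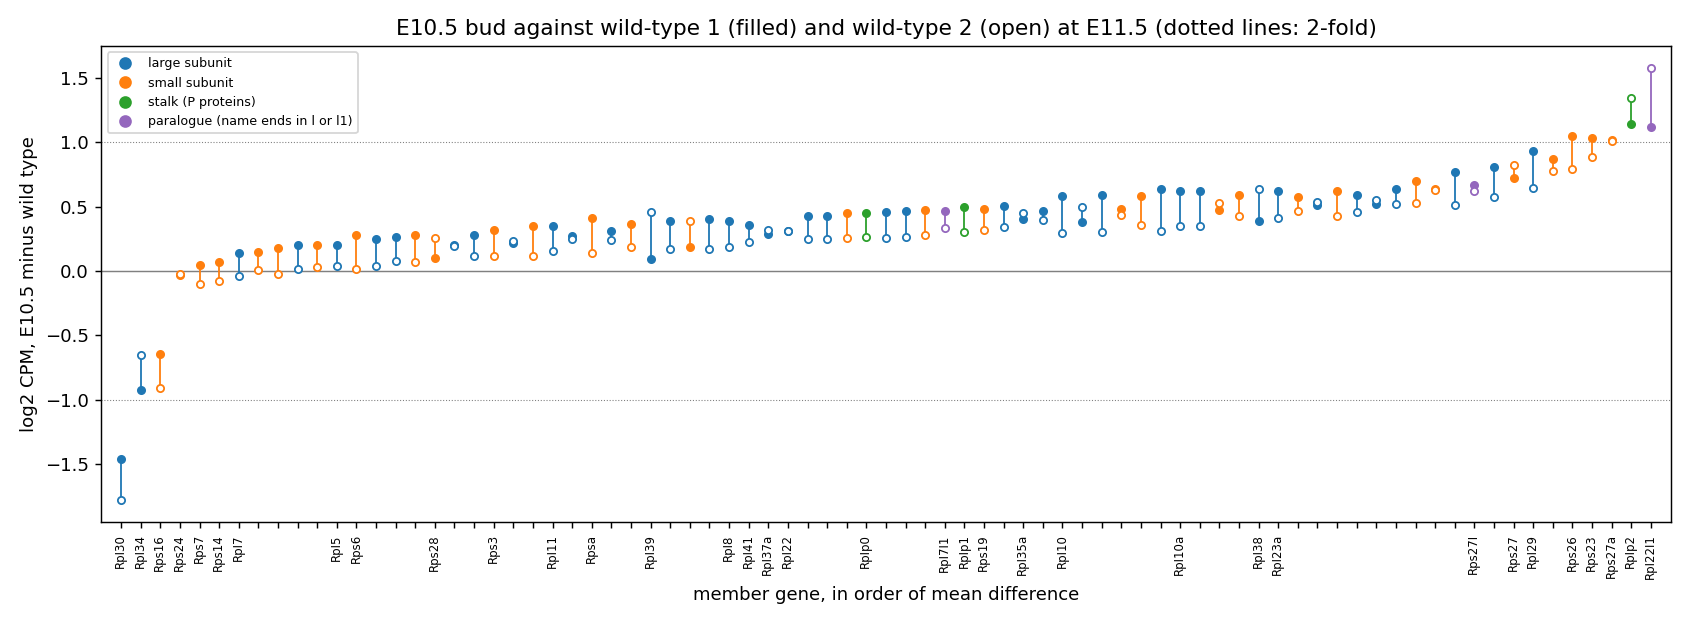
Log2 CPM at E10.5 minus that of wild type 1 (filled) and of wild type 2 (open) at E11.5 for each of the 79 genes, in order of the mean difference, with names for genes the text describes; dotted lines mark 2-fold. Most pairs lie above 0, Rpl22l1, Rplp2 and Rps27a lie above 2-fold in both, and Rpl30 lies below 2-fold in both.

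The genes below both wild types at E10.5 were Rpl30, Rpl34, Rps16 and Rps24. Rps16, whose protein tail touches the transfer RNA in the peptidyl site, had the lowest difference of the genes above 100 CPM. It stood at 315 CPM at E10.5 and 492 and 592 CPM in the wild types, 0.581 of their mean, while the mutants had 538 and 551 CPM. The E10.5 value was the lowest of the 5 libraries and the E11.5 genotypes overlapped. Rpl30 had 1.13 CPM against 3.16 and 3.95 CPM, and Rpl34 1.97 CPM against 3.76 and 3.10 CPM, both from low counts. Rps24, a Diamond-Blackfan anaemia gene, had 1274 CPM against 1302 and 1296 CPM, and Rps7 had 1102 CPM against 1066 and 1184 CPM. Their E10.5 values were 0.981 and 0.980 of the wild-type mean.

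These values differed little with the start windows shown above. The 27 genes with a run of 7 or more C or T bases in a window had a median log2 difference of 0.38 at E10.5 and a median log2 fold change of 0.04 in the mutant. The 32 genes with a window but no such run had 0.35 and 0.02. The corresponding medians were 0.36 and 0.03 for the 24 genes with CCGGAAG in a window and 0.36 and 0.05 for the 35 without it. These groups were formed after the values were seen and were not tested.

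Each paralogue resembles a parent gene in sequence, and Rpl22l1 is known to be able to take the place of Rpl22 in the ribosome. Rpl22l1 made up 26.3% of the counts of the Rpl22 and Rpl22l1 pair at E10.5 (exact 95% binomial interval 25.9% to 26.7%), 14.2% and 15.3% in mutants 1 and 2, and 17.0% and 12.9% in wild types 1 and 2. The E10.5 share was above all of the E11.5 shares, and the genotypes overlapped. The wild types differed from each other by more than counting error, with exact intervals of 16.5% to 17.5% and 12.5% to 13.3%. Rpl22 itself had 533 CPM at E10.5, 480.3 and 501 CPM in the mutants, and 429 and 430.3 CPM in the wild types (mutant over wild type log2 fold change 0.20, edgeR adjusted p = 0.217). The Rpl22l1 log2 fold change was 0.17 (SE 0.13; edgeR adjusted p = 0.543).

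Rpl7l1 made up 12.1% of the counts of its pair with Rpl7 at E10.5, 9.22% and 8.84% in the mutants, and 9.88% and 9.60% in the wild types. Its share was lower in both mutants than in both wild types, while neither gene passed the test (edgeR adjusted p = 0.788 for Rpl7l1 and 0.814 for Rpl7). Rps27l, a known p53 target, made up between 98.2% and 98.6% of its pair in every library, a share set by the near absence of Rps27 counts. Rps27l had 173 CPM at E10.5, 107 and 118 CPM in the mutants, and 109 and 113 CPM in the wild types. Coding lengths differ within a pair, so these are shares of counts and not of molecules.

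Ribosomal proteins that the name rule does not reach gave similar values. Of 5 such genes tested, none was called in the mutant by edgeR or DESeq2, none had an unadjusted p under 0.05, and their median log2 fold change was 0.07. Gnb2l1, which encodes RACK1, had 1591 and 1621 CPM in the mutants and 1441 and 1633 CPM in the wild types. Fau, a fusion of a ubiquitin-like and a small-subunit protein, had 452 and 463 CPM against 387 and 473 CPM. Their E10.5 values were 1784 and 556 CPM, each above the E11.5 wild types.

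Other parts of the translation machinery were counted in the same test, with lists chosen when earlier results of these data were known. Of all genes tested, edgeR called 7.16%, 3.82% risen and 3.34% fallen, and DESeq2 called 7.18% of those it tested. An unadjusted p under 0.05 by edgeR was found for 19.4%. Of 76 mitochondrial ribosomal protein genes, none rose and 2 fell, with a median log2 fold change of -0.05. They were Mrpl17, with 47.6 and 51.0 CPM against 75.4 and 74.0 CPM (log2 fold change -0.59, SE 0.09; edgeR adjusted p = 0.00169), and Mrps30 (log2 fold change -0.36; edgeR adjusted p = 0.0489). Of 20 elongation factors and other genes known for TOP mRNAs, edgeR called none, DESeq2 called 1, and 2 had an unadjusted p under 0.05; the median was 0.01. Of 23 initiation factors neither tool called any and none had an unadjusted p under 0.05; the median was -0.06.

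Of 47 genes of ribosomal RNA synthesis and ribosome assembly, 1 fell and none rose, with a median of -0.06. It was Tcof1, the Treacher Collins gene for a nucleolar factor of RNA polymerase I (log2 fold change -0.46, SE 0.12; edgeR adjusted p = 0.0454). Of 22 regulators of ribosomal protein synthesis, 1 fell, with a median of -0.01. It was Max, the partner of Myc, with 23.3 and 20.1 CPM against 31.4 and 28.1 CPM (log2 fold change -0.45, SE 0.11; edgeR adjusted p = 0.034). Of these 4 genes, Mrps30, Tcof1 and Max lost the call under total-count scaling, while Mrpl17 kept it.

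At E10.5 the medians of the same lists lay above the wild-type mean under TMM scaling, against 0.01 over all genes. They were 0.22 for mitochondrial ribosomal proteins, 0.25 for elongation factors and TOP mRNAs and 0.38 for initiation factors. For ribosome assembly and regulators they were 0.32 and 0.30. In the same order, 57 of 76, 17 of 20, 20 of 23, 44 of 47 and 16 of 22 genes lay above both wild types (43.5% of all). By total counts the median of all genes was -0.24, and the lists were not scaled in that way. With TMM the value for the 79 ribosomal protein genes, 0.36, lay within the range of the list medians. Myc, a known activator of ribosome synthesis, had 17.1 CPM at E10.5 and 3.80 and 2.52 CPM in the wild types. Nucleolin (Ncl), which acts in ribosomal RNA processing, had 949 CPM against 351 and 321 CPM. Myc and Ncl were named after their values were seen. Each had the largest difference of its list, Myc among the regulators and Ncl among the genes of ribosome assembly. While 16 of the 22 regulators lay above both wild types, Tsc2 lay below both, with 53.24 CPM against 85.33 and 61.74 CPM. The part of Myc or Ncl in the ribosomal protein levels was not tested.

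Genes of other cell types also differed between the libraries, in a test that called 7.16% of all genes in the mutant. The 18 genes of the p53 response, to which free ribosomal proteins can signal, had 1 risen and none fallen in the mutant, with a median of -0.06. The risen gene was Pmaip1, with 205.2 and 190.1 CPM against 129 and 124 CPM (log2 fold change 0.65; edgeR adjusted p = 0.00051). Of the 11 erythroid markers, 9 were tested and 1 rose, with a median of 0.41. Their summed level was 4016 CPM at E10.5, 2959 and 2891 CPM in the mutants, and 2351 and 2325 CPM in the wild types, so it moved with both comparisons. The adult globins Hba-a1 and Hba-a2 were not among the 9 tested, and Hba-a1 was at 0 in every library. How reads from multi-copy genes were counted is not given, so these counts do not show whether adult globin was absent. Of 11 macrophage markers 2 rose, and their sum was 18.6 CPM at E10.5, 78.8 and 75.9 CPM in the mutants, and 50.03 and 67.0 CPM in the wild types.

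Of 8 limb mesenchyme markers 1 rose (Prrx1) and 5 fell, with a median log2 fold change of -0.41. Their sums were 1143 to 1191 CPM in the mutants and 1078 to 1137 CPM in the wild types, and 1215 CPM at E10.5. Prrx1 alone held 697 and 707 CPM of the mutant sums and 517 and 487 CPM of the wild-type ones. Of 10 muscle markers 1 fell, with sums of 91.3 to 110.3 CPM and 130.5 to 157 CPM, and 120.4 CPM at E10.5. Of the E10.5 sum Met held 76.7 CPM and Pax3 23.9 CPM. There 2 of the 10 lay at least 2-fold above each wild type (3.85% of all genes) and 4 at least 2-fold below (12.4% of all). Of 11 markers of neurons and Schwann cells 2 fell, with sums of 21.9 to 22.1 CPM and 42.9 to 48.3 CPM, and 26.2 CPM at E10.5. Of 11 endothelial markers 1 rose and 1 fell, with sums of 222 to 249 CPM and 208.5 to 222 CPM, and 322 CPM at E10.5. There 10 of the 11 lay above both wild types (43.5% of all genes), with a median log2 difference of 0.74. Of 12 markers of surface ectoderm and ridge 1 rose and 3 fell, with sums of 336 to 352 CPM and 349.9 to 361 CPM, and 354 CPM at E10.5. The 79 ribosomal protein genes are expressed in all of these cell types, and the part of such differences in their levels was not tested.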

How the data were processed

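Per the labels' protocols, ribosomal RNA was removed with Ribo-Zero and stranded TruSeq total RNA libraries were amplified for 8 cycles and sequenced from both ends for 50 cycles. The submitters' processing notes name TopHat2 2.0.13, Cufflinks 2.1.1, HTSeq, SAMtools and the mm9 build. The authors deposited raw counts, whole numbers of reads for each gene symbol. The annotation, strand setting and filters of the counting are not given in the sources used here, so overlapping, antisense and multi-copy genes are uncertain. The HTSeq lines that name no gene were left out. They held 24.3% to 39.6% (no feature), 9.10% to 14.8% (alignment not unique) and 0.751% to 1.14% (ambiguous) of all lines.

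Mutant and wild type were compared in the 4 E11.5 libraries with edgeR 4.0.16 in R 4.3.3 (filterByExpr with a minimum count of 10 and a minimum total of 15, TMM, older quasi-likelihood estimate, genotype as the only term). The Benjamini-Hochberg adjustment ran over all genes of the fit, with a threshold of 0.05. DESeq2 1.42.0, other scalings, no filter, a replicate block and leaving out each library were the alternatives. The fitting steps were tested on simulated data. At E10.5 a gene was counted as higher or lower when it differed 2-fold from each wild-type library (log2 CPM, prior count 2). Coding lengths and shared 50-base stretches came from GENCODE M21 (GRCm38), start windows from RefSeq. Because the counts were made on mm9, no position was joined to them. Replicate libraries differed by more than sampling noise (chi-square per gene 12.4 and 29.5). Binomial intervals cover counting error only.

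The genes and the lists of other genes (translation machinery, p53 response, markers of cell types) were chosen with earlier results of these data known. The genes named were those called, the 5 highest and 5 lowest in each comparison, paralogues and their parents, members with a well-known role, the 3 highest and 3 lowest by mean CPM, and called genes of the translation lists, apart from a gene that is not reported here. Any other gene named, such as Rpl41, Rpl29, Rps3, Rpl8, Prrx1 or those listed by the overlap of genotypes, was chosen after its values were seen.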

Additional observations from a re-analysis of the deposited data

How the results depend on the processing

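Beside 0 as reported, the number of the 79 genes called in the mutant by edgeR was 1 with total-count scaling (5.85% of all genes tested), 4 with no filter on low counts (9.05% of all; Rpl10, Rpl10a, Rpl37a and Rps28) and 0 to 18 when 1 library was left out (4.85% to 12.2% of all). DESeq2 called 1 (7.18% of all genes it tested). The edgeR number was 0 with DESeq2 size factors (6.81% of all), upper-quartile scaling (7.86%) and TMM factors computed without the 79 genes (7.19%). It was also 0 with the newer quasi-likelihood estimate (7.4%) and at a threshold of 0.01 (538 of 16166 genes). The median log2 fold change of the 79 genes lay between -0.06 and 0.10 when 1 library was left out. The replicate numbers are not stated to pair the pools, and the gaps between replicates 1 and 2 of the 2 genotypes correlated at -0.0776 over 16166 genes. With a replicate block 1 of the 79 genes was called (Rpl37a, edgeR adjusted p = 0.0473), against 7.74% of all genes tested. In that fit 5 of the 192 genes of the translation and regulator lists were called.

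At E10.5, total counts gave 1 gene at 2-fold (2886 of all 16323 genes) in place of 4 (2648 of all). The median was then 0.109. The 1.5-fold rule gave 13 (4703 of all). Leaving out wild type 1 gave a median of 0.304, and leaving out wild type 2 gave 0.432. With the unassigned reads in the denominator the share of the 79 genes was 4.16% at E10.5, 3.61% and 3.41% in the mutants, and 3.11% and 3.72% in the wild types. Of the 192 genes of those lists, 4 were called as reported, 1 with total counts and 1 to 24 when 1 library was left out, 24 without wild type 1.

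Over 35 named genes and 12 settings each, 375 of 420 values kept direction and side of the threshold, 23 passed it only in the alternative, 11 lost the call (Mrps30, Tcof1 and Max) and 11 changed sign, 9 of them of genes within 0.1 of 0 on the log2 scale. The genes that changed sign when 1 library was left out were Rpl22l1 (-0.0318 to 0.415), Rpl7l1 (-0.134 to 0.0186), Rps19 (-0.13 to 0.0498), Rpl11 (-0.132 to 0.086), Rplp0 (-0.169 to 0.0321), Rps16 (-0.124 to 0.161, and -0.0054 without mutant 2), Rpl7 (-0.0346 to 0.163), Rps6 (-0.119 to 0.163), Rps27l (-0.0379 to 0.102) and Rps27 (-0.0617 to 0.332). The cause of these changes was not tested. The 12 settings include fits with 1 library left out, whose calls rest on no spread within that genotype. For Rps27, Rpl30 and Rpl34 the counts were low, and their intervals reached past 1.5-fold.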
